A study of Homo sapiens with 6 samples.

Results

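Glutamate and GABA are the main excitatory and inhibitory transmitters of the brain, and their receptors are built from families of related subunits. In the human line MO3.13, labelled as oligodendroglioma, 32 genes of these families each had a dedicated probe set, out of 14232 such genes on the arrays. The genes were chosen by symbol (GRIA, GRIK, GRIN1, GRIN2A to GRIN2D, GRIN3A and GRIN3B, GRM with a digit, GABRA, GABRB, GABRG, GABRD, GABRE and GABBR), not by any measured value. GRM5, GABRA3 and GABRD appeared only on probe sets annotated with other genes as well, and further members of these families are not analysed here. Each of the 32 had 1 such probe set, so no choice between probe sets was needed. The antisense transcripts GRIK1-AS1 and GRIK1-AS2 were left out.

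The Klotho-treated group consisted of 3 arrays of MO3.13 cells given recombinant mouse Klotho at 0.4 µg/mL for 3.5 h in DMEM without serum. The control group consisted of 3 arrays of the same line, for which the labels name only growth in DMEM with 10% fetal bovine serum. Klotho exposure and removal of serum therefore cannot be told apart. Klotho, a protein found on membranes and in blood, is the co-receptor for the hormone FGF23, and the study's title asks which signalling pathways it affects in this line. Nothing in the labels states that replicate arrays were separate cultures, and the p-values therefore cover only the spread between these arrays, which may be technical. All signals below are log2 values per probe set, and differences are Klotho-treated minus control on the log2 scale. Since the samples are bulk RNA, fewer cells with a transcript and less transcript per cell cannot be told apart.

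Ionotropic glutamate receptors are ion channels, of the AMPA, kainate or NMDA type, that open when glutamate binds. Metabotropic glutamate receptors and GABA-B receptors act through G proteins, whereas GABA-A receptors are chloride channels. Outside neurons these receptors have been studied in the oligodendrocyte lineage, whose precursors receive synaptic input through AMPA and GABA-A receptors and whose mature cells can be injured by excess glutamate. In non-neuronal cells many neuronal genes are held silent by the repressor REST, which binds a DNA element called RE1.

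The start regions of the receptor genes were searched for parts of the RE1 consensus, and their CpG dinucleotides were counted. RefSeq start windows of 300 bases (GRCh38.p14; 250 before and 50 after the start) were given for 27 of the 32 genes, 42 windows in all. None was given for GABRA5, GRIA3, GRIK1, GRIN1 and GRIN2C, which were therefore not searched. The left part of the RE1 consensus, TTCAGCACC, was present on either strand in 2 of the 27 genes, against 0.469% of 27305 genes with windows. The right part, GGACAGCG, was present in 1 of the 27, against 2.0% of all. The only receptor gene with both, and 1 of 9 among all genes, was GRIA2, the AMPA subunit that decides whether the channel lets calcium through. The site lies at chr4:157220388-157220408 on the minus strand, and the matching stretch of GRM2, a G protein-coupled glutamate receptor, at chr3:51706865-51706885 on the plus strand. Read in the direction of their gene, they begin at positions -231 and -203 relative to an annotated start. The GRIA2 letters below are on the opposite strand and so run from the other end of the site. Both are shown because the REST transcript was measured too, as given further down, and the matched RE1 letters are in capitals.
GRIA2: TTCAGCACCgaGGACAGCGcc
GRM2: TTCAGCACCacgaggcggaca
A match is a description of the letters and not evidence of binding in these cells. Only exact letters within the windows were searched, so the lack of a match does not show that a gene has no RE1.

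CpG dinucleotides ranged from 1 to 50 per window, with a median of 15 over the 42 receptor windows and 14 over all 35116 windows. The 250 bases before the outermost start of GRIK4 (chr11:120511498-120511747, plus strand), GABBR2 (chr9:98708936-98709185, minus strand) and GABRA6 (chr5:161685471-161685720, plus strand) are printed with CG in capitals. GRIK4 was above the yardstick described below on all 6 arrays, GABBR2 was 1 of 2 genes whose groups did not overlap, and GABRA6, a subunit known from cerebellar granule cells, had a start region poor in CpG.
GRIK4: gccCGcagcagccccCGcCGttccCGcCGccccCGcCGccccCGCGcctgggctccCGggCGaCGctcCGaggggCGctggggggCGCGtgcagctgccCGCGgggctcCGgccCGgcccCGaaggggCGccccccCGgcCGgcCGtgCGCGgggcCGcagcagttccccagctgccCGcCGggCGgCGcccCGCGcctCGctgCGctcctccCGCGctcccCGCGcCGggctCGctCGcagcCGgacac
GABBR2: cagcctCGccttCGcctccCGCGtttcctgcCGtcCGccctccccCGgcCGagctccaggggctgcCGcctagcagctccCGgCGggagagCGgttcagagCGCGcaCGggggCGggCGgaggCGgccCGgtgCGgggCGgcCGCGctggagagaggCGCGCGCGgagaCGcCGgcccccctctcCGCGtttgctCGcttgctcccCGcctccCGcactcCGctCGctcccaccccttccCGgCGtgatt
GABRA6: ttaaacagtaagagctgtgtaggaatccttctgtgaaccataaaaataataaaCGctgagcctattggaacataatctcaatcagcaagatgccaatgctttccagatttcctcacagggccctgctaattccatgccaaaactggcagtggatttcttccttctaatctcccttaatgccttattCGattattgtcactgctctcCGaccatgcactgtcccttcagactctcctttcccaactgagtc
These stretches held 44 CG dinucleotides for GRIK4, 38 for GABBR2 and 3 for GABRA6. A second GRIK4 window, at an inner start, held 29 in its 300 bases. CpG-poor windows also belonged to genes above the yardstick, with 4 and 9 CG in the windows of GRM4 and 8 in that of GRIN2D, so the 3 stretches do not stand for a relation between CpG and signal.

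No receptor gene passed the test between Klotho-treated and control cells. With limma (Benjamini-Hochberg over all 22011 probe sets), 0 of the 32 had an adjusted p under 0.05, the background over all probe sets being 0%, and the smallest adjusted p of the 32 was 0.998. An unadjusted p under 0.05 was reached by 0 of the 32, against 2.07% of all genes. There were 17 higher and 15 lower receptor genes in treated cells, with a median difference of 0.0035, against 37.4% higher and a median of -0.03 over all genes. The 6549 other genes in the same range of signal (2.54 to 6.52) were closer, with 51.2% higher and a median of 0.0034. The number higher depended on the scaling between arrays: it was 25 with each array centred on its median, 20 with quantile normalization and 16 with cyclic loess, whereas 57.3%, 53.2% and 49.7% of all genes were higher under those scalings. The groups were fully separated for 2 of the 32 (6.25%), against 7.89% of all genes. That was 1 gene higher in treated cells, GABBR2, against 2.59% of all genes, and 1 lower, GABRA4, against 5.3%.

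The arrays bounded the differences in signal closely. The standard error of a receptor gene's difference had a median of 0.09 and ran from 0.07 to 0.22. For 30 of the 32 genes (93.8%) the 95% interval was narrower than 1.5-fold both up and down, against 91.7% of all genes, and for all 32 it was narrower than 2-fold. The exceptions to the narrower bound were GRM4 and GRIN1, whose intervals reached 0.63 and -0.59. These intervals hold gene by gene, and a bound on a dim probe set need not bound the transcript.

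**Figure D1:**
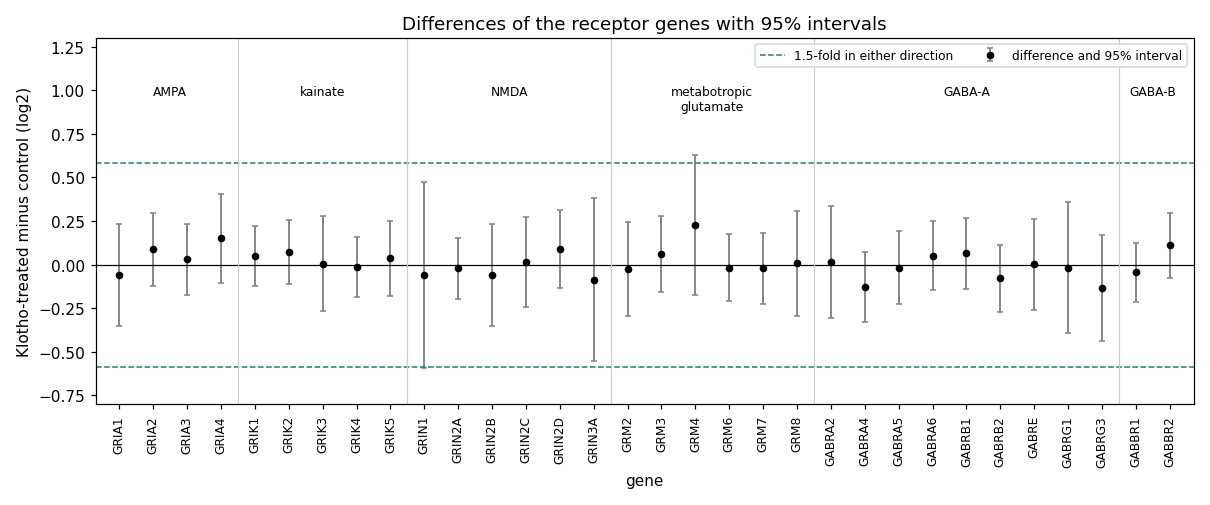
Difference between Klotho-treated and control cells for each of the 32 receptor genes (y axis, log2; points, limma estimates; bars, 95% intervals; 3 arrays per group), grouped by receptor family along the x axis. All intervals include 0, and those of GRIN1 and GRM4 alone cross the dashed lines at 1.5-fold.

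How bright the probe sets were was judged against olfactory receptor genes, which are mostly silent outside the nose. The 95th percentile of the mean signal of 220 such genes, 5.09 on the log2 scale, served as a yardstick. Probe sets differ in affinity, so a signal above it is not a detection call, and levels are not ranked between genes. Of the 32 receptor genes 10 (31.2%) were above the yardstick, against 74.1% of all genes, and 20 lay under the lower quartile of the array (4.70). Only GRIK4 was above the median of all probe sets. When each array was set against its own olfactory receptor genes, 7 genes were above on all 6 arrays, 3 on some and 22 on none. The 10 were GRIK4, GRIN2D, GABBR1, GRM4, GRIK5, GRM6, GRIN2C, GRIN1, GRIK3 and GABBR2. GRIN1 was above on 5 arrays, GRIK3 on 2 and GABBR2 on 1.

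**Figure D2:**
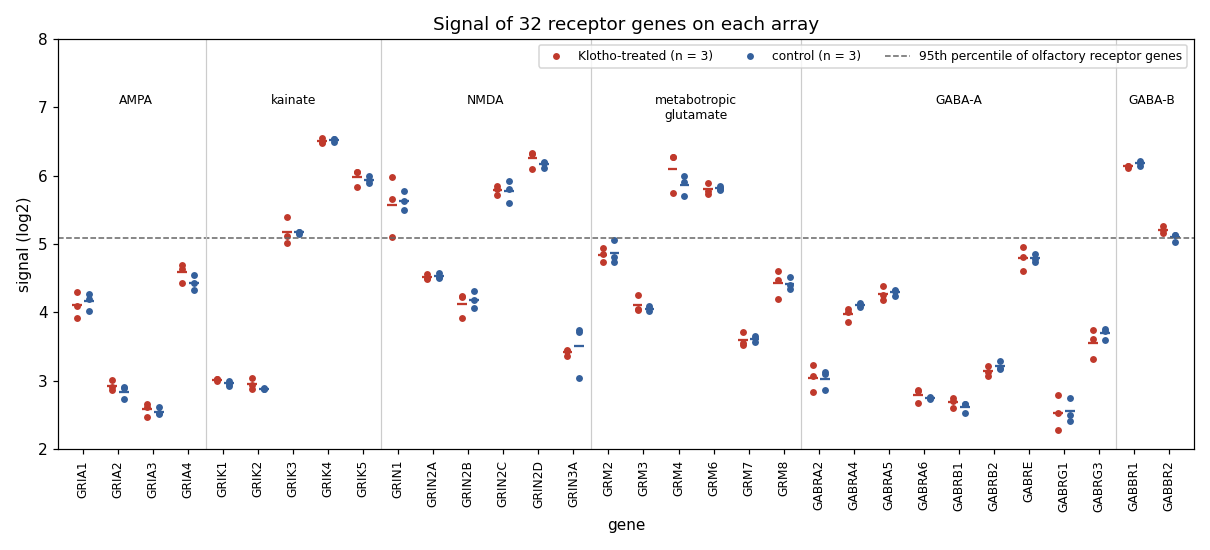
Signal of the 32 receptor genes on each array (y axis, log2; 3 Klotho-treated arrays left, 3 control arrays right; horizontal bars, group means), by family along the x axis. The dashed line is the 95th percentile of the olfactory receptor genes (5.09), and the GABA-A and AMPA subunits all have group means below it.

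All 4 AMPA receptor genes had mean signals below the yardstick. GRIA2, whose edited form makes the channel impermeable to calcium, measured 2.91, 3.01 and 2.87 on the Klotho-treated arrays, against 2.90, 2.73 and 2.89 on the control arrays. The groups overlapped, with a difference of 0.09 (95% interval -0.12 to 0.30). GRIA4, a subunit with fast kinetics, measured 4.43, 4.70 and 4.63 in treated cells, against 4.55, 4.33 and 4.43 in control cells. Treated arrays 2 and 3 were above every control array and treated array 1 was not, and the difference was 0.15 (95% interval -0.11 to 0.41; limma adjusted p = 0.998). GRIA3 measured 2.66, 2.61 and 2.47 in treated cells, against 2.51, 2.53 and 2.61 in control cells. The GRIA3 groups overlapped. The remaining subunit, GRIA1, measured 4.30, 4.10 and 3.92 in treated cells, against 4.03, 4.26 and 4.20 in control cells. Its difference of -0.06 became 0.03 without treated array 3.

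Among the 5 kainate receptor genes, 3 had mean signals above the yardstick and 2 were dim. GRIK1 and GRIK2 encode subunits that form channels on their own, and both were dim. GRIK2 measured 3.04, 2.94 and 2.89 in treated cells, against 2.88, 2.90 and 2.88 in control cells, with a difference of 0.07 (95% interval -0.11 to 0.26). GRIK1 measured 3.02, 3.02 and 2.99 in treated cells, against 2.95, 2.93 and 3.00 in control cells, a range of 0.09 over the 6 arrays. GRIK3, also a channel-forming subunit, sat at the yardstick, with 5.40, 5.12 and 5.01 in treated cells, against 5.15, 5.18 and 5.18 in control cells. The control values were nearly equal and the treated values lay on both sides of them.

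GRIK4 and GRIK5 encode the high-affinity subunits that need a partner from the other 3 to form a channel. GRIK4 measured 6.48, 6.55 and 6.50 in treated cells, against 6.53, 6.49 and 6.54 in control cells. It varied least of the 32 genes, with a range of 0.08 over the 6 arrays, and its 95% interval was -0.19 to 0.16. GRIK5 measured 6.05, 6.05 and 5.84 in treated cells, against 5.94, 5.99 and 5.90 in control cells. Treated array 3 was the lowest of the 6, and the groups overlapped.

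Among NMDA receptor genes, GRIN1 encodes the subunit that every NMDA receptor holds, and it was the most variable of the 32 genes. It measured 5.65, 5.10 and 5.97 in treated cells, against 5.50, 5.63 and 5.78 in control cells. The lowest and the highest value were both on treated arrays, a range of 0.87, and the difference of -0.06 became 0.18 without treated array 2 and -0.26 without treated array 3. GRIN2D, a subunit of early development, measured 6.32, 6.34 and 6.10 in treated cells, against 6.11, 6.21 and 6.18 in control cells. Treated arrays 1 and 2 were above all controls and treated array 3 was below them, with a difference of 0.09 (95% interval -0.14 to 0.31). GRIN2C, known mainly from cerebellum, measured 5.81, 5.84 and 5.72 in treated cells, against 5.59, 5.93 and 5.81 in control cells. Its groups overlapped.

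The other NMDA receptor genes were below the yardstick. GRIN2A, a subunit of mature synapses, measured 4.56, 4.50 and 4.48 in treated cells, against 4.58, 4.52 and 4.50 in control cells, with a 95% interval of -0.20 to 0.15. GRIN2B, its counterpart earlier in development, measured 3.92, 4.25 and 4.22 in treated cells, against 4.31, 4.19 and 4.06 in control cells, with overlapping groups and a difference of -0.06. GRIN3A, which lowers the calcium flow of receptors that hold it, measured 3.44, 3.45 and 3.36 in treated cells, against 3.04, 3.75 and 3.72 in control cells. Control array 1 stood apart from the other controls: the difference was -0.09 with it and -0.32 without it, where the adjusted p in limma was 1.00.

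The 6 metabotropic glutamate receptor genes measured all encode receptors that lower cyclic AMP. GRM4 had the largest difference of the 32 genes, 0.23 (95% interval -0.18 to 0.63). It measured 6.27, 6.27 and 5.75 in treated cells, against 5.71, 5.90 and 5.99 in control cells. Treated arrays 1 and 2 were above every control and treated array 3 was below 2 of them, so the groups overlapped. Without treated array 3 the difference was 0.40, and its adjusted p in limma was 0.842. GRM6, known from retinal bipolar cells, measured 5.77, 5.89 and 5.73 in treated cells, against 5.79, 5.81 and 5.85 in control cells. The GRM6 groups overlapped, with a difference of -0.02 that was above 0 under the 3 other scalings.

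GRM3, a receptor of glial cells as well as neurons, measured 4.26, 4.04 and 4.05 in treated cells, against 4.09, 4.06 and 4.01 in control cells. Treated array 1 alone was above the controls. GRM7, a presynaptic receptor, measured 3.71, 3.53 and 3.55 in treated cells, against 3.66, 3.62 and 3.57 in control cells, with overlapping groups. GRM2, whose start window holds the left RE1 stretch shown above, had a difference of -0.03 (95% interval -0.30 to 0.25) and lay just under the yardstick. GRM8, a presynaptic receptor like GRM7, measured 4.61, 4.19 and 4.47 in treated cells, against 4.51, 4.40 and 4.34 in control cells. The lowest and the highest GRM8 values were both on treated arrays, and its difference was 0.01.

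All 9 GABA-A receptor genes were below the yardstick, and 8 of them under that lower quartile. GABRA4 was the only one whose groups did not overlap. It measured 4.01, 4.06 and 3.87 in treated cells, against 4.14, 4.07 and 4.10 in control cells, a difference of -0.13 (95% interval -0.33 to 0.07; limma adjusted p = 0.998). The highest treated and the lowest control value were 0.02 apart. GABRG3 measured 3.61, 3.75 and 3.32 in treated cells, against 3.76, 3.59 and 3.72 in control cells. Its difference of -0.13 became -0.01 without treated array 3. GABRB2 measured between 3.07 and 3.21 in treated cells, against 3.18 to 3.29 in control cells. Treated array 3 overlapped the controls, and the difference was -0.08 (95% interval -0.27 to 0.11).

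Most GABA-A receptor genes lie beside each other in the genome, so their values can be read by neighbourhood. On chromosome 4 the order is GABRG1, GABRA2, GABRA4 and GABRB1, with differences of -0.02, 0.02, -0.13 and 0.07. A coding gene of another kind lies between GABRA2 and GABRA4. GABRA4 and GABRB1 are transcribed away from each other, and the RefSeq gene table leaves 65 bases between their outermost starts (chr4:46993582-46993646, shown on the minus strand with CG in capitals, 5 in number). The 1 start window given for GABRB1 belongs to another start, inside the gene (chr4:47031317-47031616).
GABRA4 to GABRB1: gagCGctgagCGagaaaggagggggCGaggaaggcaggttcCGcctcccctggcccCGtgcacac
GABRB1 measured 2.60, 2.70 and 2.76 in treated cells, against 2.53, 2.66 and 2.66 in control cells. These groups overlapped, and its difference had the opposite sign to that of GABRA4, with both intervals including 0. The other genes of that neighbourhood also overlapped between groups. GABRG1, which with 2.28, 2.79 and 2.53 in treated cells, against 2.74, 2.50 and 2.41 in control cells, had a range of 0.51, was the most variable of the GABA-A genes. GABRA2 measured 3.24, 3.07 and 2.83 in treated cells, against 3.12, 3.10 and 2.87 in control cells. On chromosome 5, GABRB2 (-0.08) lies beside GABRA6 (0.05), and on chromosome 15, GABRA5 (-0.02) beside GABRG3 (-0.13). GABRA6 measured 2.85, 2.86 and 2.68 in treated cells, against 2.76, 2.73 and 2.75 in control cells, and GABRA5, a subunit of hippocampal neurons, ran from 4.18 to 4.39 in treated cells and from 4.24 to 4.33 in control cells. In both the treated values spanned the control values. GABRE, which encodes the epsilon subunit, lies on the X chromosome. It measured 4.95, 4.61 and 4.81 in treated cells, against 4.73, 4.79 and 4.85 in control cells. The treated values spanned the control values.

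A GABA-B receptor needs both of its subunits: GABBR1 binds GABA, and GABBR2 carries GABBR1 to the surface and couples to the G protein. GABBR1 measured 6.12, 6.15 and 6.15 in treated cells, against 6.18, 6.22 and 6.15 in control cells. All 6 arrays lay within 0.10 of each other, and the 95% interval was -0.21 to 0.12. GABBR2 measured 5.16, 5.27 and 5.20 in treated cells, against 5.03, 5.14 and 5.13 in control cells. Its groups did not overlap, with all treated arrays higher, and the difference was 0.11 (95% interval -0.07 to 0.30; limma adjusted p = 0.998). The GABBR2 signal lay at the yardstick (5.09).

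**Figure D3:**
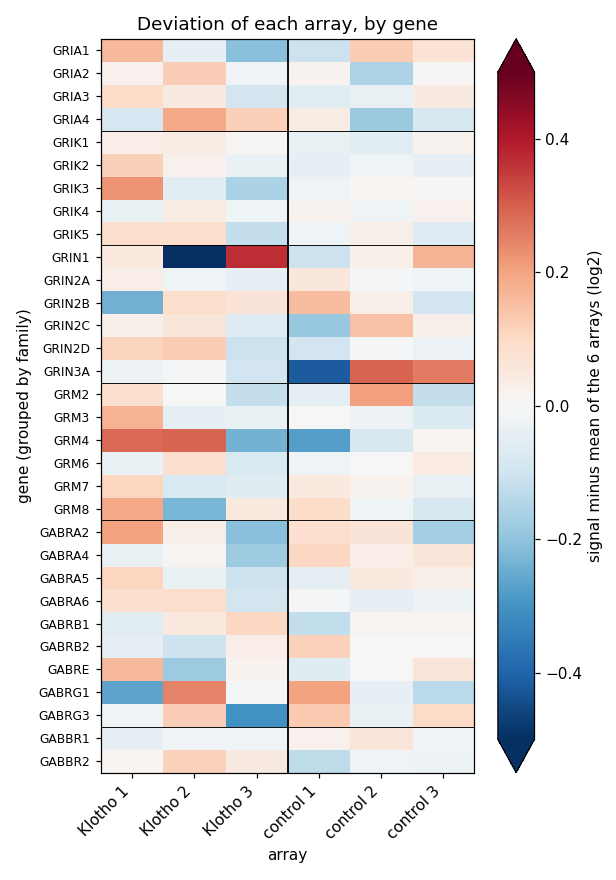
Signal of each receptor gene on each array (x axis; 3 Klotho-treated arrays left of the line, 3 control arrays right) minus the gene's mean over the 6 arrays (colour, log2; rows are genes grouped by family). The strongest colours are single arrays, GRIN1 on treated arrays 2 and 3 and GRIN3A on control array 1, rather than whole groups.

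Genes that serve these receptors also gave no call at the adjusted threshold. Of 37 measured auxiliary subunits, scaffolds and trafficking factors, 17 were higher and 20 lower, with a median difference of -0.01. Over all genes 37.4% were higher, with a median of -0.03. Groups were fully separated for 7 of the 37, 4 higher and 3 lower, against 7.89% of all genes, and that difference was not tested. HOMER3, a scaffold that links metabotropic glutamate receptors to calcium stores, measured 7.15, 7.17 and 7.04 in treated cells, against 7.23, 7.44 and 7.58 in control cells. These groups did not overlap, and the difference of -0.30 (95% interval -0.56 to -0.03) had an adjusted p of 0.998 in limma. SHISA7, an auxiliary protein of GABA-A receptors, differed by 0.22, with treated arrays all above the controls, and was dim. NETO2, an auxiliary subunit of kainate receptors, had a mean signal of 9.76 ± 0.15 in treated cells and 9.81 ± 0.17 in control cells (SD, n = 3 each).

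Of 22 measured genes for synthesis, breakdown and transport of the transmitters, 9 were higher, against 37.4% of all genes, and 13 lower. Their median difference was -0.02. NAALAD2, a peptidase that releases glutamate, differed by -0.14 with separated groups and was dim, and ALDH5A1, the last enzyme of GABA breakdown, by -0.17. Neither had an interval that excluded 0. NAALAD2 was the only 1 of the 22 whose groups were separated, against 7.89% of all genes. Of 9 measured relatives outside the symbol rule, 3 were higher, against 37.4% of all genes, and 6 lower, with a median of -0.04. They were the glutamate delta receptor gene GRID1 and genes of GABA-A pi, theta and rho subunits and of glycine receptors. GABRQ, the theta subunit, differed by 0.18, and GABRR2 by -0.17. Only GABRQ, 1 of the 9, had groups that did not overlap, against 7.89% of all genes.

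REST itself was far above the yardstick, with 8.46, 8.46 and 8.65 in treated cells, against 8.41, 8.36 and 8.55 in control cells. The REST groups overlapped, with a difference of 0.09 (95% interval -0.15 to 0.32). Of 7 measured genes of REST and its corepressors, 1 was higher and 6 were lower, with a median of -0.06 and 0 past the adjusted threshold. Over all genes 37.4% were higher, with a median of -0.03. EHMT2 and SIN3A, 2 of those corepressors, both differed by -0.11. All 7 were above the yardstick, against 74.1% of all genes.

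The label of the line was set against marker genes. Of 9 measured oligodendrocyte markers 8 were above the yardstick, against 74.1% of all genes, with a median signal of 5.46. Of these 8, 7 were within 1 log2 unit of the yardstick (OLIG1, OLIG2, SOX10, MBP, MAG, MYRF and NKX2-2). CNP, at 8.81 ± 0.13 in treated cells and 8.83 ± 0.10 in control cells (SD, n = 3 each), was the exception, and MOG was below. The 1 measured oligodendrocyte precursor marker, CSPG4, was above the yardstick, with a mean signal of 6.23. Of 6 measured neuron markers 1, MAP2, was above the yardstick. Of 5 astrocyte markers 2, GFAP and ALDH1L1, were above it, and GJA1, a gap junction gene, differed by -0.46 with overlapping groups. Differences of the astrocyte markers went both ways, 2 higher, with SLC1A2 at 0.13, and 3 lower. Among the oligodendrocyte markers 6 were higher and 3 lower, and NKX2-2 differed by 0.28 with overlapping groups. Over all genes 37.4% were higher. Of 6 skeletal muscle markers 5 were above, again against 74.1% of all genes, with a median of 9.06. The muscle acetylcholine receptor genes CHRNA1 and CHRND had mean signals of 11.7 and 9.71 in treated cells and 11.7 and 9.77 in control cells. The muscle filament gene DES differed by -0.27 (95% interval -0.47 to -0.06; limma adjusted p = 0.998), with groups that did not overlap. Separated groups were found for DES only, 1 of the 6 muscle markers, against 7.89% of all genes. It was also the only 1 of the 6 with an unadjusted limma p under 0.05, against 2.07% of all genes. Of the 6, 2 were higher, against 37.4% of all genes, and 4 lower. The part of these cell type markers in the receptor values was not tested. Averaged over its 6 genes, the muscle list ran from 8.50 to 8.53 in treated cells and from 8.51 to 8.66 in control cells.

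**Figure D4:**
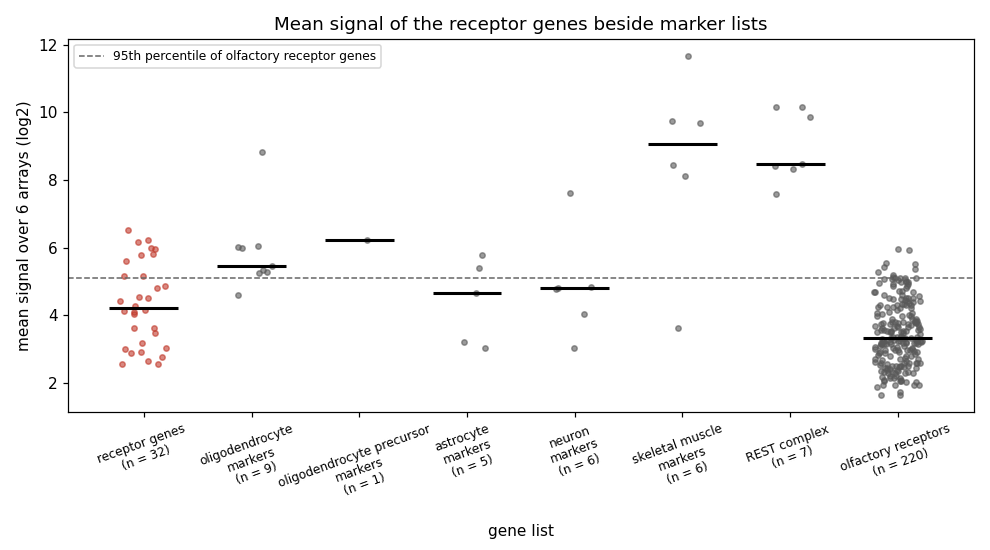
Mean signal over the 6 arrays (y axis, log2) of the receptor genes, marker lists, REST with its corepressors and the olfactory receptor genes (x axis; each point a gene, bars medians, dashed line the yardstick of 5.09). The receptor genes have a median of 4.22, above that of the olfactory receptors (3.32) and below those of all other lists shown. The nearest of these are the astrocyte (4.65) and neuron markers (4.79), followed by the oligodendrocyte markers (5.46). Probe sets differ in affinity, so the medians do not rank the lists by transcript level.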

How the data were processed

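The authors deposited 1 table of log2 values, 1 per probe set and array, for 6 arrays; the submitters' processing notes name RMA, without version. Per the labels' protocols, 100 ng of total RNA per array was amplified by the NuGEN method and labelled with biotin. Software and probe set filters: not given in the sources used here. Precision is limited by the number of arrays. The array medians ran from 6.36 to 6.47, and the arrays correlated at r = 0.985 to 0.991.

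Of 22011 probe sets, 14432 had 1 gene symbol, 2408 had several and 5171 had none. A gene was represented by its brightest probe set, which gave 14232 genes; all 32 receptor genes matched the RefSeq gene table (GRCh38.p14) by Entrez number. The test of treated against control cells was that of limma 3.58.1 (R 4.3.3; lmFit, eBayes, 2-sided) with p-values adjusted by Benjamini-Hochberg over every probe set and a threshold of 0.05, and the fit was tested on simulated data. Although the symbol rule uses no measured value, the receptor genes, lists and tests were chosen with earlier results of these data known.

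Values on every array are given for the 4 genes of smallest p in each direction, those whose groups did not overlap, the 10 above the yardstick and a fixed set, except that GABRB2 is given by its range in each group; within that set GRM5 and GABRA3 shared their probe sets with other genes, and 1 gene is not reported here. In each further pathway list the 2 genes of smallest p are named; NETO2, REST and the marker genes with values were added after their values were seen. Alternatives were 3 scalings between arrays, a filter on dim probe sets, genes alone in the fit, other variance models, array weights, the replicate block, means of probe sets and leaving out each array. The labels number replicates 1 to 3 in both groups but name no shared batch, and no scan dates or slides were used here.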

Additional observations from a re-analysis of the deposited data

How the results depend on the processing

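No alternative gave a receptor gene an adjusted p under 0.05 in limma; the count of 0 held under 3 scalings, the filter on dim probe sets, the fit of genes alone, a variance trend, a robust prior, array weights, the replicate block, means of probe sets and without each array. The count at an unadjusted p under 0.05 ran from 0 to 1 when an array was left out, the 1 being GRM4 without treated array 3 and GRIN3A without control array 1. The count of genes higher in treated cells ran from 14 to 20 without an array, and was 7 of the 12 genes left after the filter on dim probe sets, where fewer genes were tested. The median difference of 0.0035 was 0.053 with median centring, 0.024 with array weights and -0.0092 to 0.030 without an array. From 9 to 10 genes were above the yardstick without an array, and 8 with the 99th percentile of the olfactory receptor genes. The sign of 13 of the 32 differences held in all 6 fits without an array and under all 3 scalings. Of these 13, 10 were higher and 3 lower in treated cells. No such share over all genes is given here, so this count has no background beside it.

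With the replicate block the counts were 0 past the threshold, 0 at an unadjusted p under 0.05 and 17 higher, and the median was 0.0035. The labels name no shared batch, so the replicate numbers were not taken to pair the samples. Same-numbered arrays deviated from their group means with correlations of -0.18, 0.06 and -0.14, and differently numbered ones with -0.13 to 0.24. Deviations within a group of 3 sum to 0, so these correlations cannot settle whether samples were paired.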

Other observations

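Treated arrays 1 and 2 gave the highest value for 10 and 11 of the 32 genes, against 23.5% and 17.7% of 6549 other genes in the same range of signal. Treated array 3 gave the lowest value for 13 (40.6%), against 20.9% of those genes. Control array 3 was highest for 0 of the 32, against 12.8%. The difference between these shares was not tested.

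The olfactory receptor genes that served as the yardstick had their own pattern. An unadjusted limma p under 0.05 was reached by 26 of 220 olfactory receptor genes (11.8%), against 0 of 32 receptor genes and 2.07% of all genes, with 0 past the adjusted threshold in each. Their standard errors were also larger, with a median of 0.17, against 0.09 for the receptor genes. The difference between these shares was not tested.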
